A study of Mus musculus with 36 samples.

Results

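Leukocyte integrins were followed here as 10 transcripts, 6 alpha subunits (Itgal, Itgax, Itgad, Itgae, Itga4 and Itgav) and 4 beta subunits (Itgb1, Itgb2, Itgb5 and Itgb7), chosen by name from the 27562 genes of the expression table. All 10 were found, and their FPKM (fragments counted on a transcript, divided by its length and by the mapped fragments of the library) were read in 36 libraries. The libraries came from alveolar macrophages (AΦ, 18 libraries) and lung monocytes (18 libraries) of chimeric mice, in 12 groups of 3. Itgam, the alpha subunit of CD11b, was not in the chosen set and is given beside it because it shares its beta chain with 3 of the members.

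All mice were male C57BL/6J hosts (CD45.2), young adults when they were irradiated at a lethal dose with the chest shielded by lead, given busulfan and reconstituted with bone marrow of B6.SJL-Ptprca Pepcb/BoyJ donors (CD45.1). These steps were common to every group, so no library came from an untreated mouse. The mice then breathed filtered air (FA) or concentrated ambient fine particulate matter (PM2.5) for 4-weeks or 32-weeks. At 4-weeks the groups were host AΦ, called tissue-resident (TR-AΦ), and host (CD45.2) monocytes, each from FA and PM2.5 mice. At 32-weeks the groups were TR-AΦ, donor AΦ, called bone marrow-derived (BM-AΦ), CD45.2 monocytes and CD45.1 monocytes, again from FA and PM2.5 mice. The labels do not name the origin of the later monocytes. It was taken from their numbering, using the code that the study sets out for AΦ, and no value below could check it. Time on exposure also differs in the age of the mice and in any batch between the 2 time points, and these cannot be told apart.

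Integrins are membrane receptors built of 1 alpha and 1 beta subunit, which bind ligands on other cells or in the matrix once signals from inside the cell have changed their shape. The beta2 family is restricted to leukocytes: with beta2 (Itgb2), alphaL (Itgal) forms LFA-1, a receptor of ICAM-1 and ICAM-2, alphaM (Itgam) forms Mac-1, alphaX (Itgax) forms CD11c/CD18 and alphaD (Itgad) forms CD11d/CD18. Alpha4 (Itga4) pairs with beta1 (Itgb1) into VLA-4, a receptor of VCAM-1 used by monocytes to leave the blood, and with beta7 (Itgb7) into a receptor of MAdCAM-1. AlphaE (Itgae, CD103) pairs with beta7 and binds E-cadherin. Alphav (Itgav) pairs with beta1 or beta5 (Itgb5), among others, and binds vitronectin and latent TGF-beta.

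The cells were sorted on 2 of these proteins. AΦ were taken as CD64+ cells with high CD11c and low CD11b, and monocytes as cells with high CD11b and low CD64 that lacked Ly6G and MHC II. The difference of Itgax and Itgam between AΦ and monocytes is therefore given as a description of the gate, with no test.

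Of the 10 members and Itgam, 7 had an entry among the RefSeq promoters of GRCm38.p6, and 4 of these are shown because their transcripts had the widest separation between AΦ and monocytes. Each is the 250 bases before the RefSeq start, read 5′ to 3′ on the strand of the gene. Capitals mark matches on either strand to GAGGAA (a core that ETS factors bind), TGTGGT (a RUNX core) or GGGCGG (an SP1 core). Over 32851 promoters of the same length, 23.3% held the first, 14.05% the second and 32.7% the third, and no match overlapped another in the windows shown.
Itgax (chr7:128129300-128129549, + strand): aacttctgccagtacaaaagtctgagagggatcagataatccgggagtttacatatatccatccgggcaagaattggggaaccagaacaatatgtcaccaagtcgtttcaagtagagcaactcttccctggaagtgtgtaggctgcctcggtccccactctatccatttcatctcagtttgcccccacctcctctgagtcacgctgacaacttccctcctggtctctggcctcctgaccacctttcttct
Itgam (chr7:128062390-128062639, + strand): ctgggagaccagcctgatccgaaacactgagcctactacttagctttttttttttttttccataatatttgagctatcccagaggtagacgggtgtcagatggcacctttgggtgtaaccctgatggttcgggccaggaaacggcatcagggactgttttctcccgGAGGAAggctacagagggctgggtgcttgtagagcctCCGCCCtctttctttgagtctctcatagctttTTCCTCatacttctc
Itga4 (chr2:79255176-79255425, + strand): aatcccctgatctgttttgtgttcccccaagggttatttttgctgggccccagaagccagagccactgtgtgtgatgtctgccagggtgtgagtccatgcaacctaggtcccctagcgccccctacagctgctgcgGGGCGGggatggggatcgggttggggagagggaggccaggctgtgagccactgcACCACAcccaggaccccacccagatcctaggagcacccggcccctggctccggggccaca
Itgb7 (chr15:102231936-102232185, - strand): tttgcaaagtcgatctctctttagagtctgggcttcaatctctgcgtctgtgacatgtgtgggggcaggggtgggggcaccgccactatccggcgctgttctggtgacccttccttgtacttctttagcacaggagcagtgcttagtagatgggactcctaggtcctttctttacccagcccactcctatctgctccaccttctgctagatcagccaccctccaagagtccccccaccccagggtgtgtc

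The Itgam window held 2 matches to the ETS core and 1 to the SP1 core, and the Itga4 window held 1 RUNX match and 1 SP1 match. No match was found in the windows of Itgax and Itgb7, which says only that these letters are absent there. Itgam, Itgax and Itgad lie next to each other on chromosome 7 in the mm10 coordinates of the table, at 128062640 to 128128160, 128129547 to 128150657 and 128154019 to 128206387, all on the + strand. Itgal lies on the same chromosome at 127296260 to 127335138. Itgad overlaps Gm17831 and Itgam overlaps Gm49368 on the same strand, which strand cannot set apart. Each of Itgad, Itgae, Itga4 and Itgav also overlaps annotated genes on the opposite strand. The library kit keeps strand, but whether strand was used in the quantification is not given in the sources used here, so reads of these partners cannot be set apart with certainty. Itgam is listed under 2 identifiers, and the second, at 2.67 FPKM or below, was left out.

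The labelled cell types were checked against marker genes, each of which was above 0 in some library of its cell type. The summed FPKM of 11 AΦ markers was 6800 to 14344 in AΦ and 277 to 1706 in monocytes, and the sum of 10 monocyte markers was 1145 to 4773 in monocytes and 115 to 577 in AΦ. Several libraries stood apart. In TR-AΦ of 4-weeks, replicate 2 of FA and of PM2.5 had Ccr2, the chemokine receptor of inflammatory monocytes, at 31.6 and 34.3 FPKM against 3.67 to 6.44 in the other 4 libraries. In CD45.2 monocytes of 4-weeks, replicate 2 of FA and of PM2.5 had summed NK cell markers at 85.2 and 90.5 FPKM against 1.81 to 12.5, and summed neutrophil markers at 343 and 1047 FPKM against 24.6 to 51.8. The 6 libraries of CD45.2 monocytes of 32-weeks had summed interstitial macrophage markers (C1qa, C1qb, C1qc, Cd163, Lyve1 and Folr2) of 858 to 3290 FPKM against 2.85 to 406 at 4-weeks, and the highest were FA replicate 0 and PM2.5 replicate 1. For the members, the time comparisons were also fitted without these libraries, and elsewhere a member's call that changed without them is named. Genes of the partner and marker lists were not refitted without them.

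The member with the highest mean was Itgb2, the common chain of the beta2 family, in AΦ and in monocytes alike. FPKM are normalized for transcript length, so levels can be set side by side between genes. In AΦ, Itgb2 was at 305 ± 31.1 FPKM (mean ± SD, n = 18), Itgb1 at 123 ± 19.0 and Itgax at 67.1 ± 7.91. Itgal and Itgb5 followed at 42.6 ± 4.98 and 42.1 ± 3.55 FPKM, then Itga4 at 24.0 ± 6.81 and Itgav at 9.73 ± 2.32. Itgad was at 4.78 ± 1.94 and Itgb7 at 2.45 ± 2.40 FPKM. Itgae was the lowest member in AΦ, at 0 to 1.52 FPKM.

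Monocytes had another order. Itgb2 was at 220 ± 90.9 FPKM (mean ± SD, n = 18), Itga4 at 171 ± 59.8, Itgb1 at 144 ± 41.2, Itgal at 112 ± 66.1 and Itgb7 at 77.8 ± 24.1. The spread of Itgb2, Itga4, Itgb1 and Itgal was wide enough that these neighbours overlapped. Itgb5 was at 38.8 ± 14.8, Itgav at 24.6 ± 8.42 and Itgax at 12.4 ± 4.22 FPKM. Itgad and Itgae were at the bottom, at 0 to 0.249 and 0 to 0.592 FPKM, and Itgad was listed at 0 in 8 of 18 libraries.

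**Figure D1:**
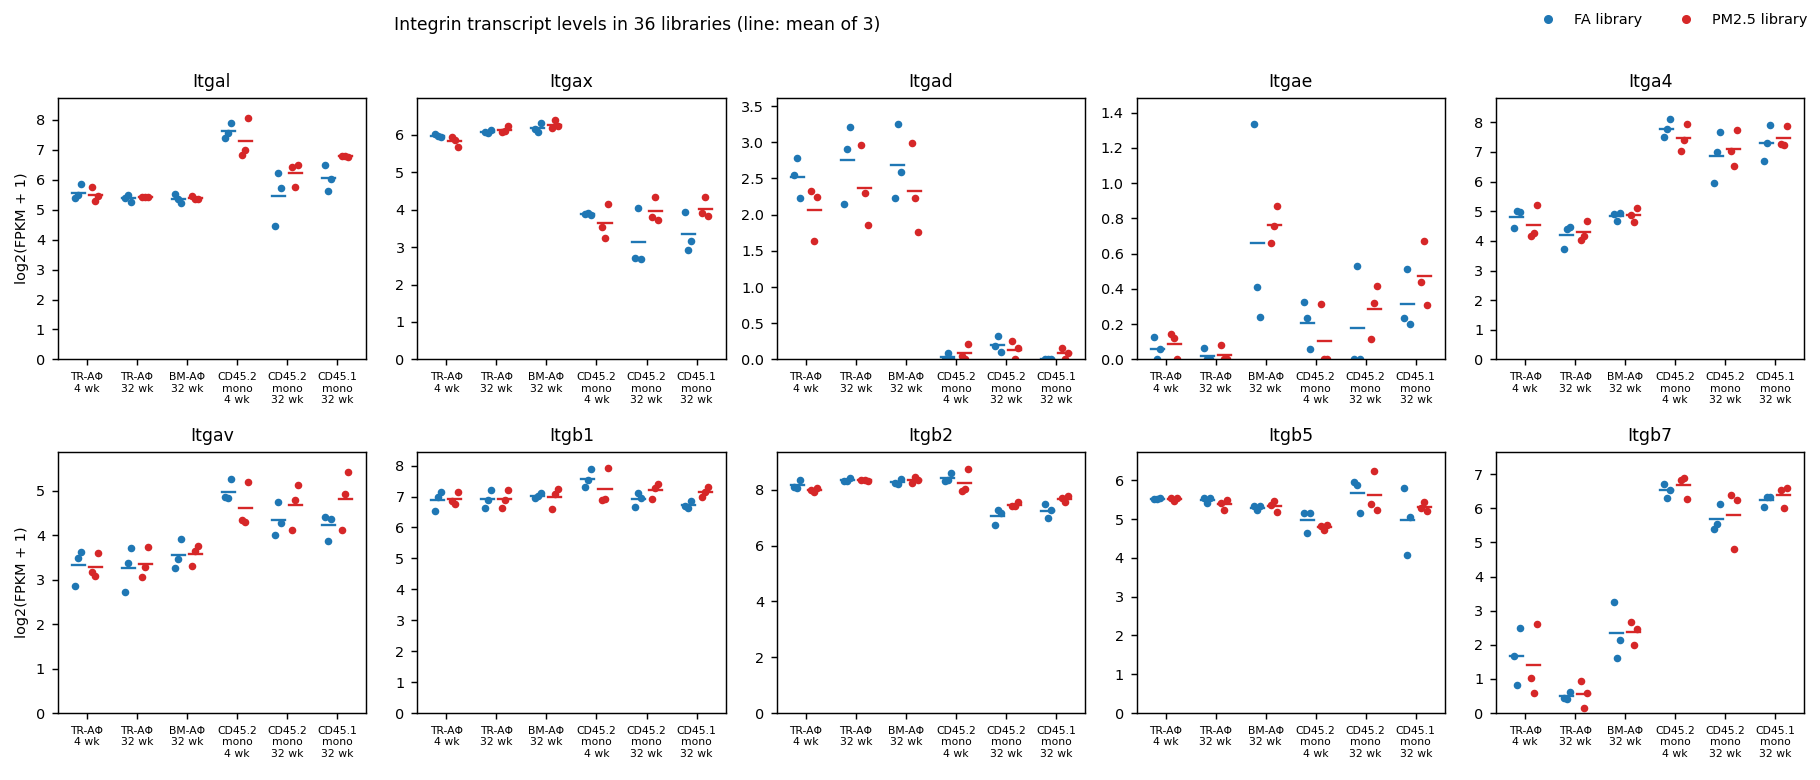
Level of each of the 10 integrin subunits as log2(FPKM + 1) on the vertical axis, by population and time point on the horizontal axis. Blue points are FA libraries, red points are PM2.5 libraries, and a line is the mean of 3 libraries. Itga4, Itgav and Itgb7 sat higher in monocytes than in AΦ, Itgax and Itgad sat higher in AΦ, and Itgb1 was between 92.2 and 239 FPKM throughout.

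The first comparison asked how the integrins of AΦ differ from those of monocytes of the same origin and time point, over both exposures (6 libraries against 6). AΦ held less Itga4, Itgb7 and Itgav in all 3 pairs of populations and more Itgad. In TR-AΦ against CD45.2 monocytes at 4-weeks, 7 of 8 tested members passed an adjusted p of 0.05 in limma, 2 higher and 5 lower in AΦ, where 48.2% of all 13307 genes tested passed (22.6% higher and 25.5% lower). At 32-weeks 5 of 8 passed in TR-AΦ against CD45.2 monocytes, 2 higher and 3 lower, where 47.3% of all genes passed (23.6% higher and 23.7% lower). Without FA replicate 0 and PM2.5 replicate 1 of those monocytes 6 members passed. In BM-AΦ against CD45.1 monocytes 6 of 8 passed, 2 higher and 4 lower, where 50.9% of all genes passed (27.1% higher and 23.8% lower). The libraries of the 2 cell types did not overlap for 6, 5 and 5 of the 8 members, and for 29.8%, 26.9% and 30.8% of all genes. The median difference of the 8 members was -0.9998, -0.33 and -0.45 on the log2(FPKM + 1) scale, against -0.02, 0.00 and 0.03 over all genes. With background shares of this size the members are described one by one. In sorted bulk samples, fewer cells that carry a transcript and less of it per cell cannot be told apart.

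Itgb2 was 244, 257, 268, 268, 274 and 330 FPKM in TR-AΦ at 4-weeks and 245 to 427 FPKM in CD45.2 monocytes (median 319), so the ranges overlapped. The difference was -0.24 ± 0.12 (log2, SE, adjusted p = 0.105). At 32-weeks TR-AΦ lay between 319 and 343 FPKM and CD45.2 monocytes between 105 and 187, with no overlap. Here AΦ were higher by 1.09 ± 0.12 (adjusted p = 1.96e-08), and BM-AΦ were higher than CD45.1 monocytes by 0.84 ± 0.12 (adjusted p = 1.41e-06).

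Itgal, the alpha chain of LFA-1, went the other way. TR-AΦ at 4-weeks had a lowest, median and highest value of 38.6, 43.2 and 56.8 FPKM, and CD45.2 monocytes had 114, 179 and 266. The log2 difference of AΦ from monocytes was -1.93 ± 0.22 (adjusted p = 3.55e-08). BM-AΦ, at 36.3, 39.9 and 44.9 FPKM, were lower than CD45.1 monocytes, at 48.2, 98.7 and 111 FPKM, with a difference of -1.04 ± 0.22 (adjusted p = 2.91e-04). In FA mice alone the difference in Itgal between BM-AΦ and CD45.1 monocytes was -0.68 (adjusted p = 0.0900). TR-AΦ at 32-weeks overlapped with CD45.2 monocytes, and Itgal differed by -0.45 ± 0.22 (adjusted p = 0.0959).

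Itgad was read in all 18 AΦ libraries, at 2.11 to 8.48 FPKM, and did not exceed 0.249 FPKM in a monocyte library. The differences were 2.24, 2.39 and 2.47, each with an SE of 0.21 (adjusted p = 8.74e-10, 2.79e-10 and 1.61e-10). With a pseudocount of 0.1 they were 4.90, 4.55 and 5.26. With 8 of 18 monocyte libraries listed at 0, no fold is given for Itgad. Itgax, which the sort used, was at 49.7 to 83.6 FPKM in AΦ and 5.40 to 19.3 in monocytes. Itgam, which the sort also used, was at 0.593 to 10.2 FPKM in AΦ and 63.6 to 142 in monocytes.

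The subunits of VLA-4 and its beta7 counterpart differed unequally. Itga4 had a lowest, median and highest value of 16.9, 25.6 and 35.99 FPKM in TR-AΦ at 4-weeks and 130, 199 and 274 in CD45.2 monocytes, a difference of -2.95 ± 0.27 (adjusted p = 5.21e-10). At 32-weeks the difference of Itga4 was -2.75 ± 0.27 for TR-AΦ (adjusted p = 2.40e-09) and -2.53 ± 0.27 for BM-AΦ (adjusted p = 1.07e-08). Its mean FPKM in AΦ was 0.126, 0.133 and 0.163 of that in monocytes in the 3 pairs. Itgb7 lay between 0.109 and 8.60 FPKM in AΦ and between 26.9 and 118 in monocytes, and no AΦ library reached the lowest monocyte library. The differences of Itgb7 were -5.06 and -5.23 for TR-AΦ at 4-weeks and 32-weeks and -3.95 for BM-AΦ, each with an SE of 0.33 (adjusted p = 5.34e-13, 3.82e-13 and 8.55e-11).

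Itgb1, the other partner of alpha4, was far more even. It was at 92.2 to 151 FPKM in AΦ and 98.3 to 239 in monocytes. At 4-weeks Itgb1 differed by -0.50 ± 0.17 (adjusted p = 0.0138), with overlapping groups. Without the 4-weeks libraries numbered 2 it was -0.38 (adjusted p = 0.0659), and leaving out PM2.5 replicate 2 of the monocytes alone gave -0.34 (adjusted p = 0.0685). At 32-weeks Itgb1 differed by -0.14 (95% interval -0.49 to 0.20) in TR-AΦ and by 0.07 (-0.28 to 0.41) in BM-AΦ.

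Itgav was at 5.63 to 14.02 FPKM in AΦ and 13.6 to 41.6 in monocytes. The differences of Itgav were -1.50, -1.20 and -0.96, each with an SE of 0.23 (adjusted p = 4.47e-06, 9.79e-05 and 1.06e-03). In FA mice alone the last of these, BM-AΦ against CD45.1 monocytes, was -0.67 (adjusted p = 0.111). Its partner Itgb5 was at 42.9 to 45.8 FPKM in TR-AΦ at 4-weeks and 24.0 to 34.6 in CD45.2 monocytes, and it was higher in AΦ by 0.63 ± 0.19 (adjusted p = 8.74e-03). At 32-weeks Itgb5 differed by -0.20 (-0.60 to 0.20) and 0.17 (-0.23 to 0.57), and the groups overlapped.

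**Figure D2:**
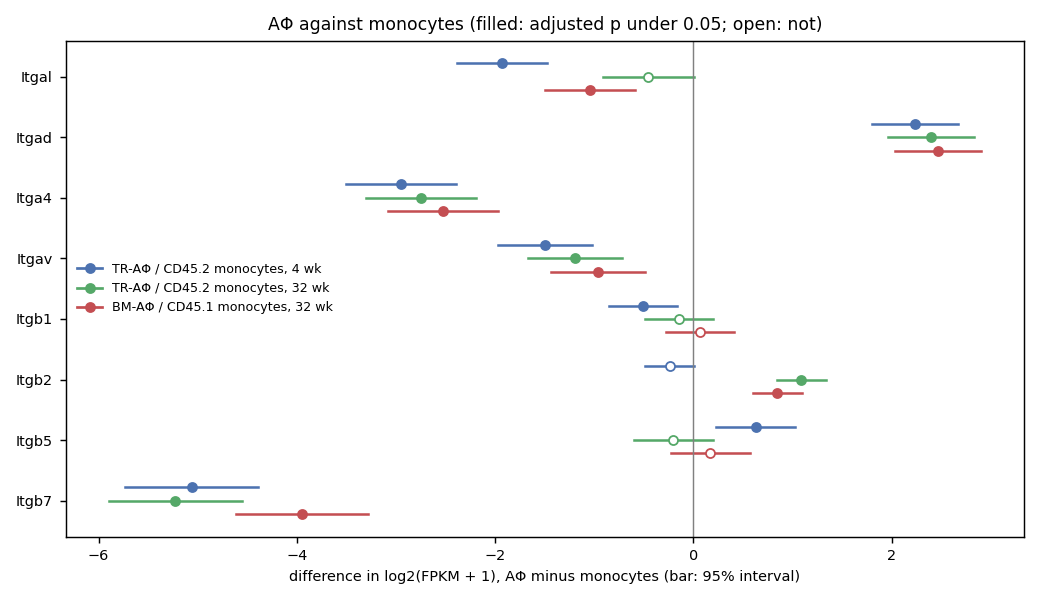
Difference of 8 tested members between AΦ and monocytes on the log2(FPKM + 1) scale (horizontal axis, AΦ minus monocytes), with 95% intervals, for the 3 pairs of populations of like origin and time point. Filled points passed an adjusted p of 0.05. Itga4, Itgb7 and Itgav lay to the left of 0 and Itgad to the right in all 3 pairs, and Itgb2 crossed from -0.24 at 4-weeks to 1.09 and 0.84 at 32-weeks.

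The alpha subunits that can pair with beta2 were also set against each other within each library, as shares of their summed FPKM, as a description with no test. The sort used the proteins of Itgax and Itgam, so differences between cell types in these shares and sums describe the gate in part. In AΦ the median share was 57.8% for Itgax, 36.3% for Itgal, 3.46% for Itgad and 1.05% for Itgam. In monocytes it was 51.7% for Itgal, 42.8% for Itgam and 5.56% for Itgax. The Itgam share was 28.9% to 44.5% in CD45.2 monocytes of 4-weeks, 43.4% to 71.0% in those of 32-weeks and 37.3% to 65.6% in CD45.1 monocytes. The sum of the 4 alpha subunits was 0.339 to 0.460 of the Itgb2 level in AΦ and 0.824 to 1.398 of it in monocytes, with no overlap. Of the summed FPKM of Itgb1 and Itgb7, Itgb7 made up 0.0925% to 6.58% in AΦ and 14.9% to 49.3% in monocytes.

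**Figure D3:**
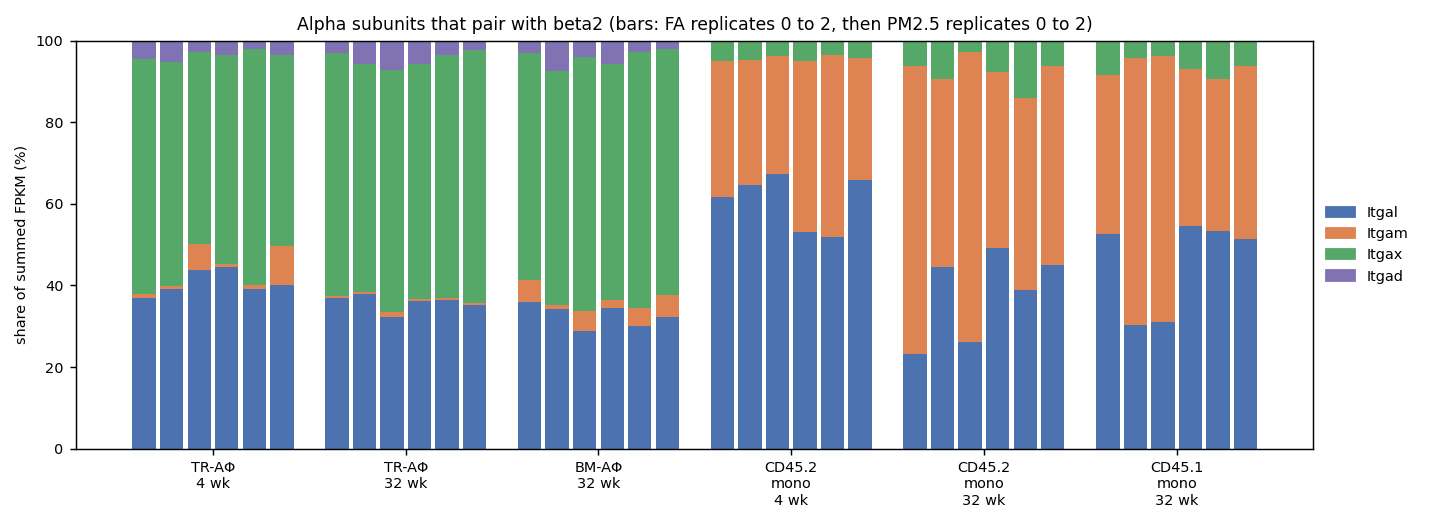
Share of Itgal, Itgam, Itgax and Itgad in their summed FPKM (vertical axis, percent), 1 bar per library, grouped by population and time point. Itgax and Itgal made up most of the sum in AΦ, and Itgal and Itgam in monocytes, where the Itgam share reached 71.0%. The proteins of Itgax and Itgam were used to sort the cells.

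The genes that integrins work with differed between the cell types as well. Of 14 kinases and adaptors that act downstream of beta2 integrins, 13 were lower in TR-AΦ than in CD45.2 monocytes at 4-weeks and 1 was higher, 9 were lower and none higher at 32-weeks, and 12 were lower and 1 higher in BM-AΦ than in CD45.1 monocytes. The lower share over all genes was 25.5%, 23.7% and 23.8%. Vav3, of the Vav family of exchange factors, was at 3.41 FPKM in TR-AΦ and 18.8 in monocytes at 4-weeks (log2 difference -2.18 ± 0.17, adjusted p = 2.13e-11). Pik3cd, a catalytic subunit of PI3-kinase, was at 16.7 and 70.3 FPKM (difference -2.00 ± 0.13, adjusted p = 3.31e-13). Of 25 tested genes of integrin activation and adhesion sites, 18, 13 and 13 were lower and 3, 4 and 5 higher. Fyb, an adaptor on the path from receptors to integrin activation, was at 3.96 FPKM in TR-AΦ and 147 in CD45.2 monocytes at 4-weeks, with differences of -5.53, -5.78 and -4.90 in the 3 pairs. Actn1, an actin crosslinker at adhesion sites, was higher in AΦ by 4.25, 3.43 and 3.79.

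Of 11 tested ligands, 5, 7 and 6 were lower in AΦ in the 3 pairs and 3 were higher in each, beside lower shares over all genes of 25.5%, 23.7% and 23.8% and higher shares of 22.6%, 23.6% and 27.1%. The median difference of the ligands was -0.32, -1.04 and -0.49. The 3 higher ligands were Spp1 (osteopontin), F11r (JAM-A, a ligand of LFA-1) and Cdh1 (E-cadherin, the ligand of alphaEbeta7). Cdh1 was at 16.7 FPKM in TR-AΦ and 0.850 in CD45.2 monocytes at 4-weeks, while its receptor chain Itgae did not exceed 0.104 FPKM in those TR-AΦ. Cdh1 is also 1 of 6 epithelial markers, whose sum was 67.8 to 196 FPKM in AΦ and 4.56 to 41.4 in monocytes. The part of epithelial cells in Cdh1 was not tested. Thbs1, a matrix protein bound by several integrins, was at 9.67 and 532 FPKM, with differences of -7.05, -8.26 and -7.44. Icam2, a ligand of LFA-1, was also lower in AΦ (-2.20, -1.86 and -1.94). Of 4 tested genes of the path that activates latent TGF-beta, 2, 3 and 3 were lower in AΦ in the 3 pairs and 1 was higher in each. The higher gene was Tgfb2 (2.12, 1.28 and 1.77), at 3.87 FPKM in TR-AΦ at 4-weeks. Nrros, which holds latent TGF-beta on myeloid cells, was lower (-1.90, -1.23 and -1.45). Tgfb1 was at 136 FPKM in TR-AΦ and 231 in CD45.2 monocytes at 4-weeks (-0.76 ± 0.16, adjusted p = 2.55e-04 in limma).

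Among the integrin chains outside the chosen set, Itgb3, the beta chain of the vitronectin receptor alphavbeta3, was at 0.101 FPKM in TR-AΦ and 7.13 in CD45.2 monocytes at 4-weeks. It was lower in AΦ by log2 differences of -2.83, -1.39 and -1.49. Of 5 tested alpha chains, 1, 0 and 0 were higher in AΦ in the 3 pairs and 1, 2 and 1 lower. Over all genes 22.6%, 23.6% and 27.1% were higher and 25.5%, 23.7% and 23.8% lower. Itga6, a laminin receptor chain, was higher in TR-AΦ at 4-weeks (0.97 ± 0.24, adjusted p = 1.28e-03 in limma) and lower at 32-weeks (-1.12 ± 0.24, adjusted p = 2.98e-04). Itga1 was lower in TR-AΦ at 4-weeks (-1.03 ± 0.24). Itga9 was lower at 32-weeks in TR-AΦ (-2.81 ± 0.27) and BM-AΦ (-1.66 ± 0.27).

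BM-AΦ and TR-AΦ share the 32-weeks lung and differ in origin, and the second comparison asked whether origin goes with integrin levels. None of 9 tested members passed an adjusted p of 0.05 in limma, where 0.316% of 12665 genes passed. At an unadjusted p under 0.05 there were 2 members, Itgb7 and Itga4, and 944 of the 12665 genes. Of the members, Itgb7 came closest to passing. BM-AΦ had 8.60, 2.06 and 3.45 FPKM in FA mice and 5.42, 2.98 and 4.53 in PM2.5 mice. TR-AΦ had 0.347, 0.340 and 0.548 in FA mice and 0.898, 0.109 and 0.508 in PM2.5 mice. All 6 BM-AΦ libraries were above all 6 TR-AΦ libraries, which held for 1.37% of all genes. The difference of Itgb7 was 1.84 ± 0.38 (95% interval 1.03 to 2.65, adjusted p = 0.0596). Itgb7 passed with a pseudocount of 0.1 (adjusted p = 0.0397), with only the groups compared in the model (adjusted p = 0.0214), with the replicate number as a block (adjusted p = 0.0171) and without FA replicate 1 of BM-AΦ (adjusted p = 0.0393). Under the other alternatives Itgb7 had an adjusted p of 0.0547 to 0.722, the highest in FA mice alone.

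Itga4, the partner of beta7, was at 29.0, 24.5 and 29.5 FPKM in BM-AΦ of FA mice and 28.4, 23.9 and 33.4 in those of PM2.5 mice. TR-AΦ had 12.1, 20.04 and 21.0 FPKM in FA mice and 15.4, 16.9 and 24.6 in PM2.5 mice, so 1 TR-AΦ library reached into the range of BM-AΦ. The difference was 0.61 ± 0.20 (0.18 to 1.04, adjusted p = 0.348). Itgae, which also pairs with beta7, fell under the filter of a mean of 1 FPKM and was not tested. It was at 0.180 to 1.52 FPKM in BM-AΦ and at 0 to 0.0582 in TR-AΦ of 32-weeks, where 4 of 6 libraries were listed at 0, and the 2 populations did not overlap.

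The members of the beta2 family had narrow intervals around 0 between origins, apart from Itgad. Itgb2 differed by -0.04 (95% interval -0.22 to 0.13), Itgal by -0.03 (-0.24 to 0.18), Itgax by 0.11 (-0.04 to 0.27) and Itgad by -0.05 (-0.63 to 0.52). Itgam was at 1.10 to 6.54 FPKM in BM-AΦ and 0.593 to 1.56 in TR-AΦ, with a difference of 1.56 ± 0.52 (adjusted p = 0.359) and overlapping groups. Itgb1, Itgav and Itgb5 differed by 0.09, 0.25 and -0.13, each with an interval that held 0. None of the tested genes in the lists of ligands, activation, downstream kinases, TGF-beta and other subunits passed.

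Dendritic cell markers moved with Itgb7 and Itgae. The sum of 8 such markers was 15.8 to 41.4 FPKM in BM-AΦ and 7.85 to 10.9 in TR-AΦ, and 1 of 4 tested markers passed, higher in BM-AΦ. Monocyte markers summed to 263 to 397 FPKM in BM-AΦ and 115 to 388 in TR-AΦ, with 0 of 9 tested past the threshold. Interstitial macrophage markers summed to 39.2 to 314 FPKM in BM-AΦ (median 154) and 18.4 to 71.8 in TR-AΦ (median 31.7), with 0 of 6 tested past the threshold. The median platelet marker sum was 14.9 and 4.10 FPKM, and the 1 platelet gene tested did not pass. The library with the highest Itgb7 and Itgae, BM-AΦ of FA replicate 0, also had the highest dendritic cell and interstitial macrophage sums of the BM-AΦ libraries. The part of other cells in these values was not tested.

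**Figure D4:**
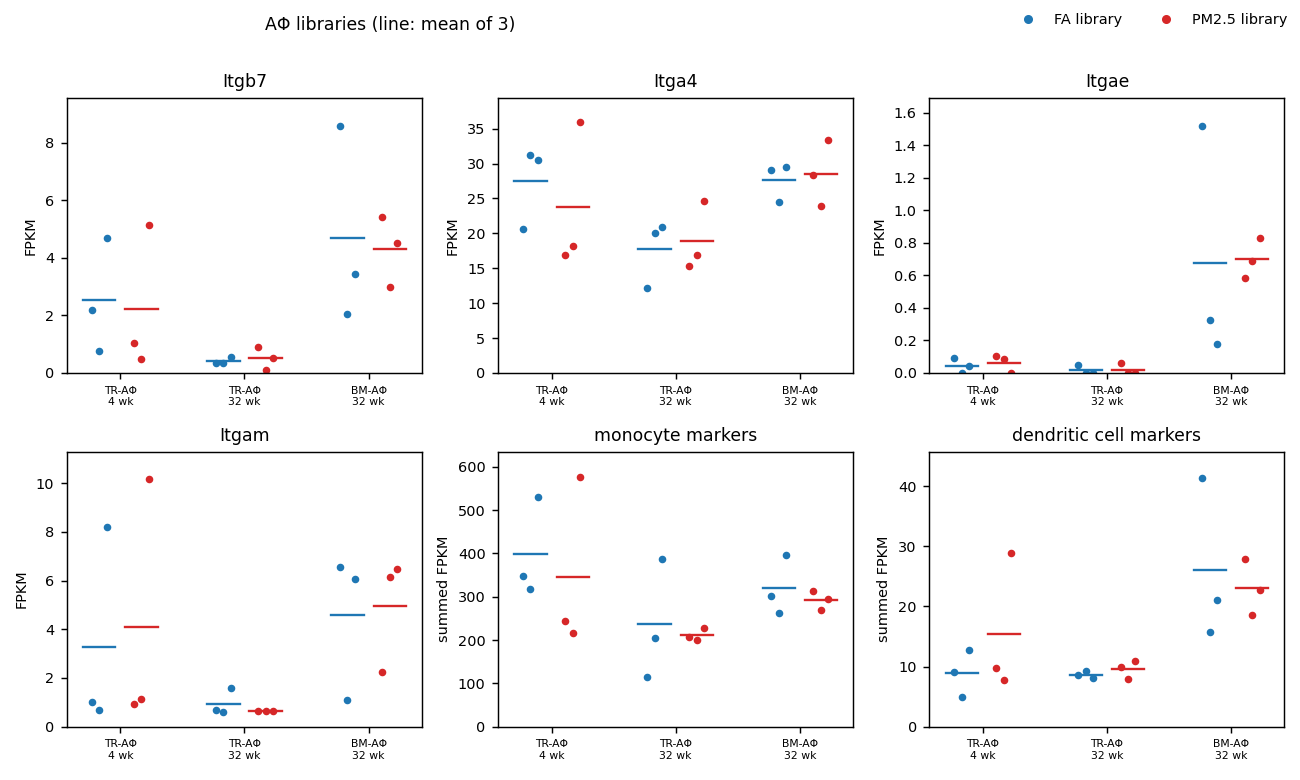
FPKM of Itgb7, Itga4, Itgae and Itgam, and the summed FPKM of monocyte and dendritic cell markers (vertical axes), in AΦ libraries by population and time point. Blue points are FA libraries, red points are PM2.5 libraries and lines are means of 3. Itgb7, Itgae and dendritic cell markers were higher in every BM-AΦ library than in every TR-AΦ library of 32-weeks, and 2 TR-AΦ libraries of 4-weeks stood above the rest in Itgam.

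For the same question, donor and host monocytes of 32-weeks were compared. None of 8 tested members passed in limma (0.669% of 12856 genes passed). At an unadjusted p under 0.05 there was 1 member, Itgb7, and 1233 of the 12856 genes. No member's libraries were apart between the 2 populations, as were those of 1.18% of all genes. Itgb7 was at 63.2 to 95.9 FPKM in CD45.1 and 26.9 to 83.5 in CD45.2 monocytes (0.56 ± 0.25, adjusted p = 0.489). The difference was 0.31 without PM2.5 replicate 1 of CD45.2 monocytes, the lowest library, and 0.24 without FA replicate 0 as well. The origin difference of Itgb7 was larger in AΦ than in monocytes by 1.28 ± 0.46, which did not pass (adjusted p = 0.247, no member called and 1.08% of all genes called).

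Time was compared within host cells, 32-weeks against 4-weeks. In CD45.2 monocytes Itgal, Itgb2 and Itgb7 were lower at 32-weeks, and the other 5 tested members did not pass. These 3 lower calls of 8 stand beside 14.9% of all 12856 genes called, 7.06% higher and 7.83% lower. Itgal, Itgb2 and Itgb5, 3 of 8, did not overlap between the time points, as did 7.72% of all genes. The median of the members was -0.50, against -0.05 over all genes.

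Itgb2 was at 316, 322 and 392 FPKM in FA mice and 245, 263 and 427 in PM2.5 mice at 4-weeks. At 32-weeks it was at 105, 154 and 143 and at 171, 168 and 187 FPKM, and no 32-weeks library reached a 4-weeks library. The log2 change of Itgb2 was -1.07 ± 0.16 (adjusted p = 6.38e-04). Itgal was at 169, 190 and 240 FPKM in FA mice and 114, 127 and 266 in PM2.5 mice at 4-weeks. Later it was at 20.9, 73.8 and 52.5 and at 84.9, 53.8 and 89.9 FPKM, again with no overlap, and changed by -1.61 ± 0.29 (adjusted p = 2.11e-03). Both chains of LFA-1 were thus lower at 32-weeks.

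Both calls held without the 4-weeks libraries numbered 2 (Itgal -1.35, adjusted p = 0.0149, and Itgb2 -0.90, adjusted p = 3.28e-03). They held without FA replicate 0 and PM2.5 replicate 1 of 32-weeks (Itgal -1.24, adjusted p = 0.0101, and Itgb2 -0.97, adjusted p = 6.28e-03). Within FA mice Itgal changed by -2.16 (adjusted p = 6.73e-03) and Itgb2 by -1.36 (adjusted p = 3.54e-03). Within PM2.5 mice alone neither passed, at -1.07 for Itgal (adjusted p = 0.199) and -0.78 for Itgb2 (adjusted p = 0.0788).

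Itgb7 was at 104, 78.6 and 92.8 FPKM in FA mice and 114, 118 and 76.9 in PM2.5 mice at 4-weeks. At 32-weeks it was at 41.1, 45.15 and 68.5 and at 83.5, 26.9 and 75.1 FPKM, and the groups overlapped. It changed by -0.85 ± 0.25 (adjusted p = 0.0336). The call was lost with quantile normalization (-0.61, adjusted p = 0.116), with only the groups compared in the model (adjusted p = 0.0759), without the 4-weeks libraries numbered 2 (-0.94, adjusted p = 0.0618), without the 2 libraries of 32-weeks named above (-0.52, adjusted p = 0.114), within FA mice (-0.84, adjusted p = 0.183) and PM2.5 mice (-0.86, adjusted p = 0.236) alone, and in 7 of 12 fits that left out 1 library, where Itgb7 had an adjusted p of up to 0.0841.

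Itgb5 was at 24.0 to 34.6 FPKM at 4-weeks and 34.7 to 75.1 at 32-weeks, with all later libraries above the earlier ones. Its change of 0.75 ± 0.26 did not pass (adjusted p = 0.0699). Itga4 was at 130 to 274 and 60.9 to 215 FPKM (-0.64 ± 0.31, adjusted p = 0.204), and leaving out FA replicate 0 of 32-weeks gave a change of -0.41, which became -0.26 when PM2.5 replicate 1 was also left out. Itgb1, Itgav, Itgax and Itgam differed by -0.35, -0.29, -0.21 and -0.26, with overlapping groups.

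**Figure D5:**
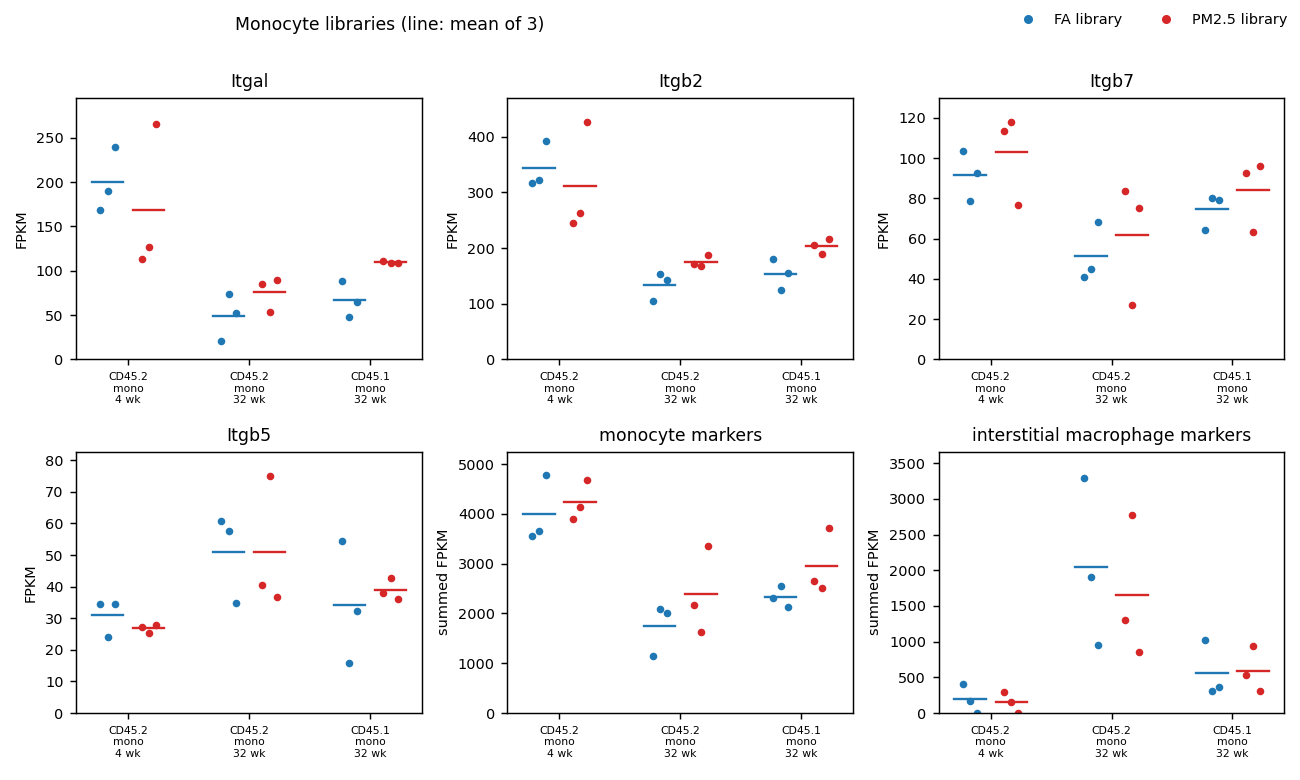
FPKM of Itgal, Itgb2, Itgb7 and Itgb5, and the summed FPKM of monocyte and interstitial macrophage markers (vertical axes), in monocyte libraries by origin and time point. Blue points are FA libraries, red points are PM2.5 libraries and lines are means of 3. Itgal, Itgb2 and monocyte markers were lower in every CD45.2 library of 32-weeks than of 4-weeks, and interstitial macrophage markers were higher in every one.

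Markers of other cells moved with time in the same libraries. Of 10 tested monocyte markers, 5 were lower at 32-weeks and none higher, and their sum went from 3546 to 4773 FPKM at 4-weeks to 1145 to 3349 at 32-weeks. All 6 interstitial macrophage markers were higher at 32-weeks, with the sums given above. Of 9 tested AΦ markers, 5 were higher and 3 lower. Endothelial markers were higher (2 of 2 tested) and NK cell markers lower (2 of 2 tested), the latter with their highest sums in the 4-weeks libraries numbered 2. These counts stand beside 7.06% higher and 7.83% lower over all genes. The sum of 5 platelet markers went from 1.60 to 14.9 FPKM to 73.0 to 289, and that of 7 T cell markers from 1.13 to 5.25 to 11.5 to 38.3. Only 1 gene of each of these 2 lists reached the filter, and it was higher at 32-weeks. Gp9 of the platelet list and Cd3d and Cd8a of the T cell list were listed at 0 in every 32-weeks library of CD45.2 monocytes. Whether these sums reflect platelets or T cells was not tested. In CD45.1 monocytes of 32-weeks, where the interstitial macrophage sum was 308 to 1022 FPKM, Itgal was at 48.2 to 111 FPKM and Itgb2 at 125 to 216, below every 4-weeks library of CD45.2 monocytes in both. The part of other cells in these changes was not tested.

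Of 14 genes downstream of beta2 integrins, 8 were lower at 32-weeks in CD45.2 monocytes and 1 was higher. Over all genes tested, 7.83% were lower and 7.06% higher. Fgr, a Src family kinase of myeloid cells, was at 100 and 41.2 FPKM at 4-weeks and 32-weeks (-1.33 ± 0.22, adjusted p = 1.09e-03). Lcp2 (SLP-76), an adaptor, was at 52.5 and 20.8 FPKM (-1.29 ± 0.20, adjusted p = 8.45e-04). Src itself rose by 1.61. Of 25 genes of integrin activation and adhesion sites, 9 were lower and 1, Parvb, was higher (0.88), beside the same shares over all genes. Rasgrp2, the exchange factor that activates Rap1 upstream of integrins, was lower at 32-weeks, at 6.88 against 17.1 FPKM (-1.29 ± 0.28, adjusted p = 6.32e-03), and Fyb fell by 0.96.

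Of 11 tested ligands in CD45.2 monocytes, 3 were higher and 2 lower at 32-weeks, beside 7.06% higher and 7.83% lower over all genes. Vcam1, the ligand of VLA-4, was at 0.328 to 4.73 FPKM at 4-weeks and 15.5 to 137 at 32-weeks (4.35 ± 0.56, adjusted p = 3.10e-04). Spp1 rose by 1.33. The alpha chains Itga9 and Itga6 rose by 2.18 and 1.76 from 0.841 and 0.798 FPKM. The 2 libraries with the highest interstitial macrophage sums, FA replicate 0 and PM2.5 replicate 1, also had the highest Vcam1, at 137 and 132 FPKM.

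In TR-AΦ no member passed between 4-weeks and 32-weeks, in FA mice (0.782% of all genes called) or in PM2.5 mice (1.05%), and 2 members in each had an unadjusted p under 0.05 in limma. Of all 12665 genes, 1535 in FA mice and 1928 in PM2.5 mice had an unadjusted p under 0.05. In each exposure 2 of 9 members did not overlap between the time points, Itgax and Itgb7 in FA mice and Itgax and Itgb2 in PM2.5 mice, as did 15.6% and 18.3% of all genes. Itgb2 was at 268 to 330 FPKM at 4-weeks and 319 to 343 at 32-weeks in FA mice (0.18 ± 0.11), and at 244 to 268 and 320 to 329 in PM2.5 mice (0.34 ± 0.11, adjusted p = 0.178). Itgal changed by -0.19 and -0.08. Itgb7 was at 2.18, 0.750 and 4.68 FPKM in FA mice and 1.05, 0.494 and 5.16 in PM2.5 mice at 4-weeks, and did not exceed 0.898 at 32-weeks. Its differences of -1.17 ± 0.53 (adjusted p = 0.4001) and -0.86 ± 0.53 (adjusted p = 0.475) became -0.74 and -0.25 without the libraries numbered 2, which held the highest Itgb7 and Itgam of 4-weeks TR-AΦ.

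Icam1, the main ligand of LFA-1, was the 1 ligand that passed in TR-AΦ over time. It was at 80.6, 71.8 and 99.8 FPKM in FA mice and 64.2, 55.3 and 113 in PM2.5 mice at 4-weeks. At 32-weeks it was at 27.2, 23.6 and 30.6 and at 23.1, 27.5 and 28.8 FPKM, with no overlap. The changes were -1.59 ± 0.23 (adjusted p = 4.99e-03) and -1.45 ± 0.23 (adjusted p = 6.48e-03). In CD45.2 monocytes Icam1 was at 69.7 to 125 FPKM at 4-weeks and 48.5 to 72.4 at 32-weeks, so lower values later were not particular to TR-AΦ.

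The change over time was set against that in monocytes in 1 model of both cell types. It differed for Itgb2, by 1.33 ± 0.17 (adjusted p = 2.18e-05), and for Itgal, by 1.48 ± 0.31 (adjusted p = 3.02e-03), both more positive in TR-AΦ. These 2 of 9 tested members stand beside 7.88% of all 13307 genes. For Itgb5 the difference was -0.83 ± 0.28 (adjusted p = 0.0633), and for Itgb7 -0.16 ± 0.46.

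The last comparison asked whether PM2.5 changed integrin levels. No member passed in any of the 6 comparisons of PM2.5 with FA in limma, where 0.0079% of all genes passed in TR-AΦ at 4-weeks, 0% in TR-AΦ and 0.0158% in BM-AΦ at 32-weeks, 0.00778% in CD45.2 monocytes at 4-weeks, and 0% in both monocyte populations at 32-weeks. At an unadjusted p under 0.05 there was 1 member in all, Itgax in CD45.2 monocytes of 32-weeks, where 547 of 12856 genes were under it. In the other 5 comparisons it held for 372 genes (TR-AΦ, 4-weeks), 396 (TR-AΦ, 32-weeks) and 259 (BM-AΦ) of 12665. In monocytes it held for 272 (CD45.2, 4-weeks) and 609 (CD45.1, 32-weeks) of 12856. Groups did not overlap for 1 of 9 members, Itgax, in TR-AΦ at 4-weeks (5.82% of all genes) and for 0 of 9 in TR-AΦ (5.98%) and BM-AΦ (6.44%) at 32-weeks. Itgax was there at 63.9, 61.1 and 60.9 FPKM in FA mice and 60.5, 57.1 and 49.7 in PM2.5 mice. The 9 tested members lay between -0.45 and 0.04 in TR-AΦ at 4-weeks, between -0.38 and 0.10 in TR-AΦ at 32-weeks, and between -0.36 and 0.10 in BM-AΦ. The lowest value in each was that of Itgad. Itgb2 in TR-AΦ at 32-weeks was at 319, 321 and 343 FPKM in FA mice and 324, 329 and 320 in PM2.5 mice.

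In monocytes at 32-weeks most members had higher values in PM2.5 than in FA mice, with a median of 0.42 in CD45.1 and 0.31 in CD45.2 monocytes, against 0.03 and 0.02 over all genes. Itgal was at 88.7, 48.2 and 64.2 FPKM in FA mice and 111, 109 and 109 in PM2.5 mice in CD45.1 monocytes, with no overlap (0.74, 95% interval -0.14 to 1.63, adjusted p = 0.950). Itgb2 was at 180, 125 and 155 against 206, 189 and 216 FPKM (0.42, -0.06 to 0.90), and Itgb1 at 104, 98.3 and 114 against 127, 140 and 156 FPKM (0.42, -0.13 to 0.96). These 3 of 8 members did not overlap between exposures, as did 8.89% of all genes. In CD45.2 monocytes 1 of 8, Itgb2, did not overlap (0.40, -0.07 to 0.88), as did 6.39% of all genes. Itgax was at 5.54, 15.4 and 5.40 FPKM in FA mice and 12.9, 19.3 and 12.2 in PM2.5 mice (0.81, 0.05 to 1.58, adjusted p = 1). This difference of Itgax was 1.26 without FA replicate 1 and 0.40 without FA replicate 0 and PM2.5 replicate 1.

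Monocyte, dendritic cell and red cell markers leaned the same way in these libraries. Red cell markers had a median difference of 0.79 in CD45.1 and 0.80 in CD45.2 monocytes. Medians of AΦ, epithelial, eosinophil, B cell and NK cell markers were also above 0 in both populations, and the remaining lists were mixed. In CD45.1 and CD45.2 monocytes the median difference was 0.21 and 0.53 for AΦ markers and 0.15 and -0.32 for interstitial macrophage markers. For neutrophil markers it was -0.25 and 0.15, and none of these markers passed. PM2.5 replicate 1 of CD45.2 monocytes had the highest Itgax (19.3 FPKM) and the highest AΦ marker sum (1706 FPKM) of the monocyte libraries. Monocyte markers had a median difference of 0.89 in CD45.1 and 0.82 in CD45.2 monocytes, and dendritic cell markers of 0.72 and 0.82, and in both populations 0 of 10 and 0 of 6 tested markers passed. The monocyte marker sum was 2121 to 2546 FPKM in FA mice and 2518 to 3710 in PM2.5 mice in CD45.1 monocytes, and 1145 to 2094 and 1631 to 3349 in CD45.2 monocytes. The dendritic cell sum was 63.4 to 108 and 66.8 to 179 FPKM in CD45.1 monocytes, and 40.1 to 97.3 and 78.1 to 134 in CD45.2 monocytes. The part of these markers in the integrin values was not tested.

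At 4-weeks the values of CD45.2 monocytes leaned the other way, with a median of -0.28 over 8 members, none of which was free of overlap (6.57% of all genes were). There Itgal was at 169, 190 and 240 FPKM in FA mice and 114, 127 and 266 in PM2.5 mice (-0.33 ± 0.41). No tested member passed for a difference of the PM2.5 effect on TR-AΦ between 32-weeks and 4-weeks (0.0079% of all genes passed) or between BM-AΦ and TR-AΦ at 32-weeks (0.0158%) in limma. No member had an unadjusted p under 0.05 in either, where 380 and 240 of 12665 genes had.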

How the data were processed

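RNA-seq was made from AΦ and monocytes sorted from mouse lung, with 3 libraries in each of 12 groups. Per the labels and the study's methods, the authors prepared stranded SMART-Seq libraries, trimmed reads with TrimGalore, aligned them to mm10 with STAR and computed FPKM per gene with Cufflinks. The deposited FPKM are normalized for depth and transcript length, no counts were analysed here, and the methods give a nominal sequencing depth but the depth of each library is not given in the sources used here, so precision rests on the replicates. FPKM summed to 1839577 to 3339020 per library. A value of exactly 0 can be a failed estimate and is described as listed at 0. Per the study's methods 3 mice per group were sequenced. Which libraries of different populations came from 1 mouse is not given in the sources used here, so populations were fitted as independent and p-values measure the spread between these libraries.

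log2(FPKM + 1) was fitted in limma 3.58.1 (R 4.3.3) with 1 mean per group, a variance trend and Benjamini-Hochberg adjustment over the genes whose mean in a model reached 1 FPKM, 12665 for AΦ, 12856 for monocytes and 13307 for both, with a threshold of 0.05. A fold change on this scale understates that of low genes. There were 14 comparisons of groups and 4 of differences between them. The fit was tested on simulated data. Named were all members and Itgam and, from each list of integrin partners, any gene called for PM2.5 and otherwise up to 3 genes per direction that passed without overlap, ranked by size of change. Of the genes this rule gave, those described are a selection, and marker genes are named for the libraries that stood apart. The members and lists were chosen with earlier results of these data known. Alternatives were the pseudocount, filter, scaling, groups in the model, replicate blocks, single exposures and leaving out libraries; 2 of these, which leave out libraries that stood apart, were added after seeing the data.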

Additional observations from a re-analysis of the deposited data

Results flagged for a closer look

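The change between 4-weeks and 32-weeks differed between TR-AΦ and CD45.2 monocytes for 2 members, tested as an interaction in limma over both cell types. For Itgal the change was 1.48 ± 0.31 higher in TR-AΦ (log2, SE, adjusted p = 3.02e-03), and for Itgb2 it was 1.33 ± 0.17 higher (adjusted p = 2.18e-05). Over the fits that left out 1 library each, Itgal stayed between 1.22 and 1.66 and Itgb2 between 1.21 and 1.41, and both passed in all 24. Without the 4-weeks libraries numbered 2 they were 1.27 and 1.22, and without FA replicate 0 and PM2.5 replicate 1 of the 32-weeks CD45.2 monocytes 1.11 and 1.23, all past the threshold. Monocyte markers, lower at 32-weeks in those monocytes, and interstitial macrophage markers, higher there, moved in the same libraries, and their part was not tested.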

How the results depend on the processing

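Of the values of single members under the alternatives, 811 kept their direction and their side of the threshold, 24 no longer passed, 12 newly passed and none reversed. The number of members called moved by over 1.5 times in 2 comparisons. Between BM-AΦ and TR-AΦ it went from 0 to 1 (Itgb7) with a pseudocount of 0.1, with only the groups compared and with the replicate block by number, and was 0 to 1 over fits without 1 library. Between 32-weeks and 4-weeks in CD45.2 monocytes it went from 3 to 0 in PM2.5 mice only, and was 2 to 4 over fits without 1 library. Smaller moves over all alternatives were 6 to 8 between TR-AΦ and CD45.2 monocytes at 4-weeks (7 as reported), 5 to 6 at 32-weeks (5), 4 to 6 between BM-AΦ and CD45.1 monocytes (6) and 2 to 3 for the difference in time effect (2). Itgb5 over time in monocytes passed with quantile normalization (0.94, adjusted p = 0.0496) and with only the groups compared (adjusted p = 0.0450). Itgb1 between TR-AΦ and CD45.2 monocytes at 4-weeks was -0.13 with quantile normalization (adjusted p = 0.567). The cause of these changes was not tested.

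The sources used here do not say whether a replicate number marks a shared mouse or day. Deviations from the group means correlated at -0.04 to 0.16 between libraries of the same number in different populations (42 pairs) and at -0.15 to 0.12 between different numbers (84 pairs), and between exposures at -0.09 to 0.21 (18 pairs) and -0.21 to 0.25 (36 pairs). A cutoff on these correlations is no test of pairing, since the deviations from a mean of 3 libraries depend on each other. The numbers were not taken as pairs because no source used here says what they mark. Libraries of 1 number did share traits: the summed AΦ markers were lowest in number 0 and highest in number 2 in 6 of 6 AΦ groups, Itgav and Itgb1 were highest in number 2 in 6 of 6 AΦ groups, and Itga4 in 6 of 6 monocyte groups. Summed red cell markers were highest in number 2 in every 32-weeks group, at 17.7 to 85.7 FPKM. In every 4-weeks group they were lowest in number 2, at 0 to 1.31 FPKM. The main p-values do not account for what the number marks, which was not tested. With the number as a block, Itgb7 passed between BM-AΦ and TR-AΦ (adjusted p = 0.0171) and Itga4 between 32-weeks and 4-weeks in CD45.2 monocytes (-0.64, adjusted p = 0.0216), which made 4 members called there, and no other member's call changed. The depth of each library is not given in the sources used here, so low members such as Itgae, Itgad in monocytes and Itgb7 in TR-AΦ have no limit from counting.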
